A study of Mus musculus with 20 samples.

Results

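The 40 genes described here encode the machinery of mitosis and the kinetochore, the protein assembly through which a chromosome holds on to the spindle. They were chosen by name, with earlier results of these data known, and each symbol was matched to its Ensembl ID in the gene count table. All 40 were found among its 63318 genes, and all 40 passed the filter on low counts together with 19741 genes in all. The counts come from poly(A) RNA of mouse heart in 4 groups of 4 short-read libraries. The MI group was sampled 72 h after surgery for myocardial infarction, from the infarct core and the tissue around it, and MISham is the sham-operated group for the same tissue. The IR group had 40 min of "LCA", which the labels do not spell out, and 72 h of reperfusion, and was sampled from the infarct core alone, as was IRSham, its own sham group. No label gives a strain, a genotype, an age or a sex, and 4 further long-read libraries were not analysed here. Because the MI and IR groups differ in both injury and region sampled, these cannot be told apart. Nothing in the labels says that the 4 libraries of a group are separate animals, so every p-value measures the spread between libraries.

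When a cell enters mitosis, CDK1 bound to cyclin B phosphorylates many proteins, condensins and topoisomerase compact and untangle the chromosomes, and centromeres marked by the histone variant CENP-A build kinetochores. Unattached kinetochores keep the spindle checkpoint active, which holds back CDC20 and the anaphase-promoting complex until every chromosome is attached. The genes of this machinery are transcribed late in the cell cycle and are silent or nearly so in cells that do not divide. Adult cardiomyocytes seldom divide, whereas fibroblasts and macrophages of an injured heart do so in the days after the injury.

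Genes of this kind are known to be driven through CCAAT boxes, bound by NF-Y, and through the cell cycle genes homology region, whose core is TTTGAA or TTCGAA and which is bound by the MuvB complex with B-MYB and FOXM1. RefSeq promoter windows (GRCm38.p6), which run over 300 bases around the annotated start, were at hand for 33 of the 40 genes in 36 entries. Foxm1, Incenp, Smc4, Tpx2, Ccna2, Kif20a and Aurkb had no entry. On either strand, CCAAT stood in 26 of the 36 windows (72.2%), against 37.4% of all 32851 windows of the table. TTTGAA or TTCGAA stood in 28 of the 36 (77.8%), against 19.2% of all windows. Both motifs were present in 24 of the 36 (66.7%), against 7.52% of all windows. Neither was present in 6 of the 36 (16.7%), against 50.9% of all windows, and these 6 were the windows of Birc5, Mad2l1, Ncaph, Nuf2 and Nusap1 and 1 of the Ncapd3 entries. A match is only a description of the letters, and binding was not measured. The 150 bases before the start of 7 members follow, 5′ to 3′ on the strand of the gene, with motif matches in capitals (ATTGG is CCAAT read from the other strand). Cdk1 (chr10:69352913-69353062, minus strand), Cdc20 (chr4:118437344-118437493, minus strand) and the second entry of Prc1 (chr7:80294326-80294475, plus strand) are shown as strongly rising members with both motifs. Ccnb1 (chr13:100786487-100786636, minus strand) rose as strongly with CCAAT alone. Nuf2 (chr1:169531465-169531614, minus strand) is shown as a strongly rising member with neither motif. Cenpa (chr5:30666736-30666885, plus strand) and the first entry of Ncapd3 (chr9:27030015-27030164, plus strand) are the members whose counts did not pass the test in either injury.
Cdk1: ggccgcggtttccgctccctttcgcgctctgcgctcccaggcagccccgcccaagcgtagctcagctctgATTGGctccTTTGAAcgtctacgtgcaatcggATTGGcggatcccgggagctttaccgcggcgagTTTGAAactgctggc
Cdc20: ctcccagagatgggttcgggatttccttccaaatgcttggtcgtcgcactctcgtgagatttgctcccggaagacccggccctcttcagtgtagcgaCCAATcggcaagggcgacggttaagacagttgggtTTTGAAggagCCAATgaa
Prc1: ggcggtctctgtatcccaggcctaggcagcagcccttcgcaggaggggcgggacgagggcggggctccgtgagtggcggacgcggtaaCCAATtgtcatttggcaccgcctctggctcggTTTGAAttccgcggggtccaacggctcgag
Ccnb1: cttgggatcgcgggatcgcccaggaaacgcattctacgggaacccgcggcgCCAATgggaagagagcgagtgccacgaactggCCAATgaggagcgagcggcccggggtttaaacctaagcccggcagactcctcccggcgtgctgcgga
Nuf2: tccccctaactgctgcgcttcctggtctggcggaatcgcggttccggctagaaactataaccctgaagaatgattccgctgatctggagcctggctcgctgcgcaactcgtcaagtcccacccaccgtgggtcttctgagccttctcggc
Cenpa: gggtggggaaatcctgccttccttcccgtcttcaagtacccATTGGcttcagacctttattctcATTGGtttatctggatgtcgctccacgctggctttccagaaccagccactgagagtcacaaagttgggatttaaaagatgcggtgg
Ncapd3: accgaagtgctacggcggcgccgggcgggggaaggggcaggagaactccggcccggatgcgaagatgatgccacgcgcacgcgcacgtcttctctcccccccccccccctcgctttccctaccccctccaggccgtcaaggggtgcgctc
In Cdk1 the motif TTTGAA begins at positions -71 and -15 from the start, in Cdc20 at -18 and in Prc1 at -30. In Ccnb1 CCAAT begins at -99 and -67. The Cenpa window has CCAAT on the other strand at -109 and -86, and its TTTGAA lies at position 17, past the printed stretch. Neither motif is among the letters of the Nuf2 window or of this Ncapd3 window, and the other Ncapd3 entry has TTTGAA on the other strand (TTCAAA) at -249.

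Library totals were 57.2 to 63.1 M counts in MI (M, 1e6), 24.3 to 27.6 M in MISham, 26.2 to 31.8 M in IR and 25.5 to 29.8 M in IRSham. Counts were put on a scale of counts per 1e6 counts (CPM) after TMM scaling, which evens out differences in library composition. Marker lists differed between injury and sham as follows, in summed CPM. All 10 cardiomyocyte markers fell in both injuries, with sums of 15950 to 28360 in MI against 89800 to 104600 in MISham. IR libraries had 16630 to 35000, set against 93470 to 99150 in IRSham. Of 8 fibroblast and myofibroblast markers 7 rose in each injury and 1 fell in MI, with 18960 to 23400 in MI against 2230 to 8278 in MISham. IR libraries had 23470 to 27920, set against 5464 to 8115 in IRSham. Of 9 macrophage and monocyte markers 9 rose in MI and 8 in IR, with 2294 to 3241 in MI against 480.9 to 1200 in MISham. IR libraries had 2545 to 4494, set against 882.6 to 1531 in IRSham. Fibroblasts, macrophages and other cells that can divide thus differed in their markers along with the genes below, and their part in the results was not tested. In bulk tissue, more cells of a type and more RNA per cell cannot be told apart. Neutrophil markers summed to 182 to 422.1 in MI against 29.58 to 110 in MISham. IR libraries had 92.5 to 177.1, set against 30.6 to 111.5 in IRSham, with 5 of 6 tested genes higher in MI and 2 in IR; Ly6g was at 0 in some libraries of every group. Lymphocyte markers summed to 12.38 to 14.53 in MI against 4.606 to 9.907 in MISham. IR libraries had 10.61 to 16.89, set against 7.304 to 12.72 in IRSham, with 6 of 8 higher in MI and 2 in IR. Endothelial markers summed to 1430 to 1524 in MI against 1175 to 1317 in MISham. IR libraries had 958.9 to 1376, set against 1172 to 1293 in IRSham, with 3 of 7 higher and 1 lower in MI, and 1 higher and 2 lower in IR. Pericyte and smooth muscle markers summed to 1006 to 1040 in MI against 880.0 to 962.2 in MISham. IR libraries had 942.2 to 1170, set against 1159 to 1402 in IRSham, with 4 of 7 higher and 3 lower in MI, and 2 higher and 3 lower in IR. Over 4 tested erythroid markers the sums were 170.9 to 517.3 in MI against 234.3 to 500.3 in MISham. IR libraries had 338.2, 227.2, 1227 and 354.9, so that replicate 3 stood apart, set against 178.5 to 405.2 in IRSham, with none of the 4 called by edgeR in MI and 1 higher in IR.

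Nearly all of the 40 listed genes stood higher in the injured heart. By edgeR's quasi-likelihood test at an adjusted p under 0.05, 38 of the 40 genes rose in MI and 38 of 40 in IR, where 34.8% of all genes tested rose in MI and 29.5% in IR. None fell in either injury, by edgeR, by edgeR's unadjusted p or by DESeq2 (0 of 40 each), while 30.2% of all genes fell in MI and 28.2% in IR. The exceptions were Ncapd3, a condensin II subunit, and Cenpa, the centromeric histone. A rise of at least 4-fold was called for 36 members in MI (6.74% of all genes) and 35 in IR (3.75% of all genes). The median log2 fold change of the 40 was 3.06 in MI and 2.59 in IR, beside 0.0829 and 0.0323 over all genes tested. In 38 members every MI library lay above every MISham library (34.1% of all genes), and in 38 every IR library lay above every IRSham library (26.1%). The number higher ranged over 38 to 40 across 20 settings in each injury, the main fit included.

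**Figure D1:**
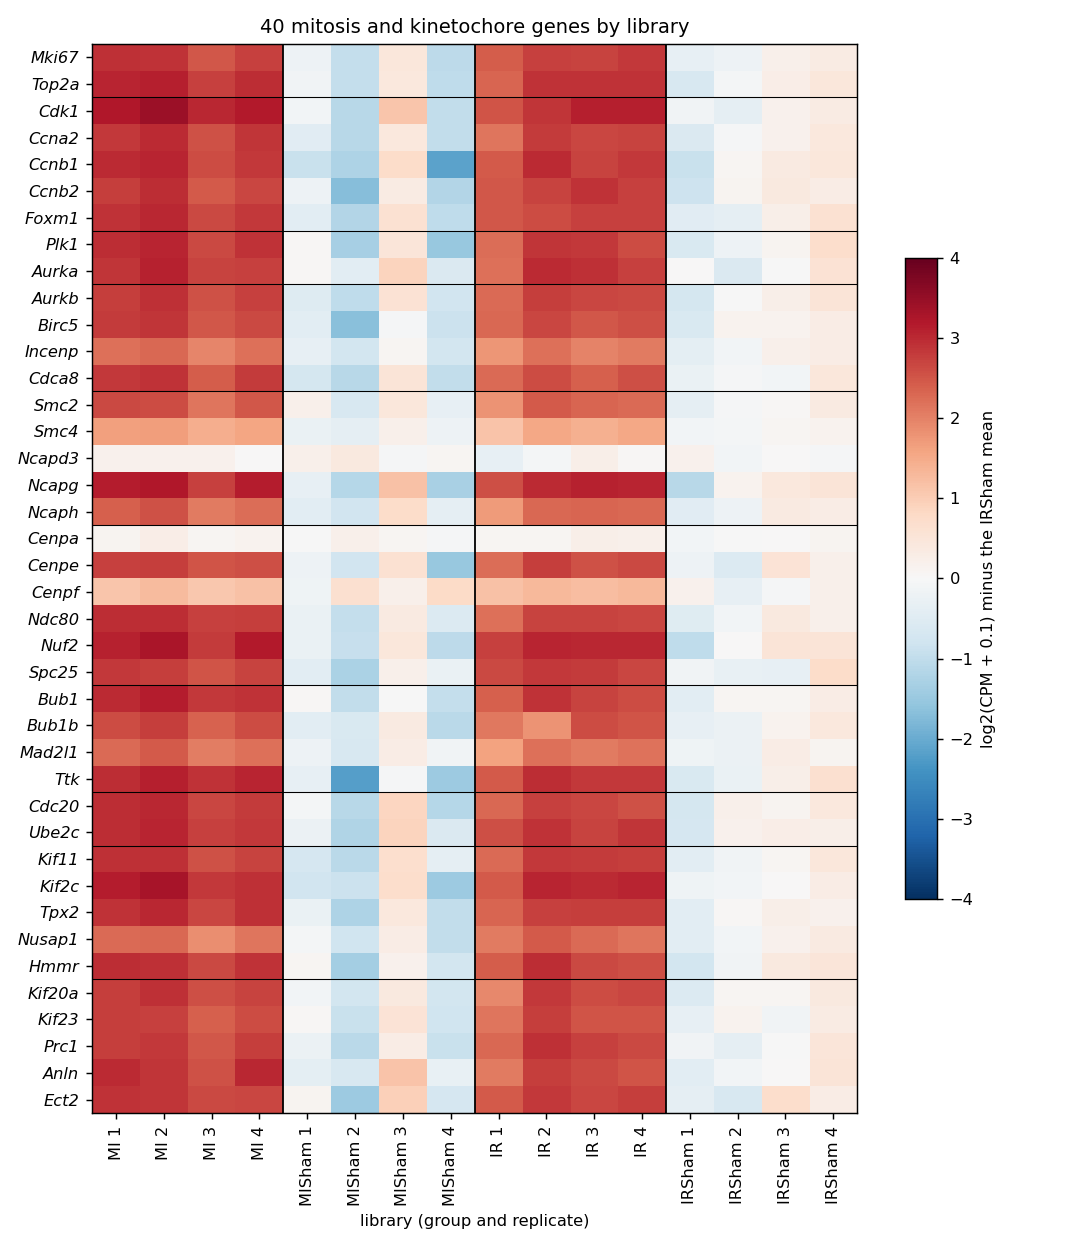
Heat map of log2(CPM + 0.1) of the 40 genes (down the page, grouped by role between thin lines) in each of the 16 libraries (across), as the difference from the IRSham mean of the same gene on a scale of -4 to 4. The MI and IR columns are red for 38 genes, with library medians of 2.55 to 2.92 in MI and 2.27 to 2.76 in IR, while Ncapd3 and Cenpa stay pale throughout.

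Levels between genes can be set side by side only per length, as TPM (transcripts per 1e6 transcripts) summed over the annotated transcripts of a gene. Cdk1 was the most abundant in MI at 85.5 ± 15.05 TPM (SD, n = 4), followed by Cenpa at 75.4 ± 13.3 and Ube2c at 69.5 ± 10.52, neighbours that lay within their spread. In MISham Cenpa stood far above all others at 33.0 ± 3.33 TPM, followed by Ube2c at 5.50 ± 3.73 and Prc1 at 5.43 ± 2.52. In IR Cenpa had 70.6 ± 9.72 TPM, Cdk1 65.8 ± 17.5 and Ube2c 62.7 ± 12.1, again within their spread. In IRSham Cenpa had 37.4 ± 2.49 TPM and the next gene, Cdk1, 6.68 ± 2.12. Cenpf was the least abundant in MI at 3.95 ± 0.331 TPM, and in IR at 4.92 ± 1.09, where Ttk at 4.95 ± 1.204 did not differ from it beyond the spread. In the sham hearts Ttk was the least abundant, at 0.403 ± 0.347 TPM in MISham and 0.507 ± 0.0750 in IRSham.

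Mki67 encodes Ki-67, the coat protein of mitotic chromosomes used as the standard marker of dividing cells, and Top2a the topoisomerase that untangles sister DNA. Top2a had 191, 197, 153 and 178 CPM in the MI libraries, against 20.6, 11.7, 30.8 and 11.2 CPM in the MISham libraries. For Top2a the IR libraries had 114, 171, 171 and 168 CPM, against 14.6, 21.5, 27.4 and 31.3 CPM in the IRSham libraries. No library of either injury overlapped with those of its sham, and the IR library at 114 CPM stood well below the other IR libraries. Top2a rose by 3.27 ± 0.32 on the log2 scale in MI (adjusted p = 6.03e-07) and by 2.72 ± 0.31 in IR (adjusted p = 4.45e-06). Mki67 averaged 169.9 ± 21.7 CPM in MI hearts against 20.2 ± 10.3 CPM in MISham hearts, with 160.5 ± 18.3 CPM for IR against 25.4 ± 5.23 CPM for IRSham. Mki67 rose by 3.07 ± 0.28 on the log2 scale in MI (adjusted p = 3.23e-07) and by 2.66 ± 0.28 in IR (adjusted p = 1.83e-06). The MISham libraries were themselves uneven, with 30.8 CPM of Top2a in replicate 3 and 11.2 in replicate 4.

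Mitotic entry depends on the kinase CDK1, its partners cyclin A2 and cyclins B1 and B2, and FOXM1, a transcription factor of late cell cycle genes. Cdk1 had 55.1, 64.9, 48.1 and 53.9 CPM in the MI libraries, against 5.45, 2.70, 12.8 and 2.94 CPM in the MISham libraries. For Cdk1 the IR libraries had 34.1, 43.6, 51.4 and 51.8 CPM, against 5.32, 4.62, 6.73 and 7.44 CPM in the IRSham libraries. The groups did not overlap, and MISham replicate 3 was the highest of the sham libraries at 12.8 CPM. Cdk1 rose by 3.20 ± 0.38 on the log2 scale in MI (adjusted p = 4.38e-06) and by 2.91 ± 0.38 in IR (adjusted p = 1.5e-05). Ccnb1 had 47.5, 49.3, 35.9 and 42.2 CPM in the MI libraries, against 3.09, 2.43, 9.84 and 1.26 CPM in the MISham libraries. For Ccnb1 the IR libraries had 32.4, 47.2, 38.5 and 42.0 CPM, against 3.15, 6.16, 7.57 and 7.97 CPM in the IRSham libraries. For this cyclin MISham replicate 4 was the lowest sham library at 1.26 CPM and replicate 3 the highest at 9.84. Ccnb1 rose by 3.37 ± 0.46 on the log2 scale in MI (adjusted p = 1.59e-05) and by 2.69 ± 0.44 in IR (adjusted p = 0.000122). Ccna2, the cyclin of replication and mitotic entry, averaged 67.8 ± 8.58 CPM in MI hearts against 7.24 ± 3.90 CPM in MISham hearts, with 58.6 ± 10.9 CPM for IR against 9.89 ± 2.76 CPM for IRSham. Ccnb2, the second B-type cyclin, averaged 32.1 ± 4.55 CPM in MI hearts against 3.39 ± 2.09 CPM in MISham hearts, with 31.6 ± 3.62 CPM for IR against 5.01 ± 1.62 CPM for IRSham. Foxm1 averaged 49.97 ± 5.28 CPM in MI hearts against 5.45 ± 3.44 CPM in MISham hearts, with 43.3 ± 3.49 CPM for IR against 7.16 ± 2.54 CPM for IRSham. All 5 genes rose in both injuries, by 3.18 to 3.37 on the log2 scale in MI and by 2.57 to 2.91 in IR.

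Polo-like kinase 1 and Aurora A drive the maturation of the spindle poles. Plk1 had 41.5, 44.3, 33.0 and 39.4 CPM in the MI libraries, against 5.37, 2.02, 7.28 and 1.77 CPM in the MISham libraries. For Plk1 the IR libraries had 24.8, 38.3, 37.6 and 32.02 CPM, against 3.37, 4.53, 5.60 and 8.62 CPM in the IRSham libraries. Neither injury overlapped with its sham. Plk1 rose by 3.25 ± 0.38 on the log2 scale in MI (adjusted p = 3.37e-06) and by 2.59 ± 0.37 in IR (adjusted p = 3.27e-05). Aurka averaged 24.1 ± 2.98 CPM in MI hearts against 3.47 ± 1.78 CPM in MISham hearts, with 22.1 ± 4.82 CPM for IR against 3.36 ± 1.11 CPM for IRSham. Aurka rose by 2.78 ± 0.29 on the log2 scale in MI (adjusted p = 5.34e-07) and by 2.71 ± 0.29 in IR (adjusted p = 1.23e-06). The chromosomal passenger complex, which corrects faulty attachments, consists of the kinase Aurora B, survivin (Birc5), borealin (Cdca8) and the scaffold INCENP. Birc5 had 39.6, 41.3, 31.7 and 34.9 CPM in the MI libraries, against 4.13, 1.66, 5.43 and 3.03 CPM in the MISham libraries. For Birc5 the IR libraries had 27.9, 35.7, 31.9 and 33.8 CPM, against 3.63, 6.21, 6.16 and 6.91 CPM in the IRSham libraries. The groups were separate, and MISham replicates 2 and 4 were the lowest of all libraries. Birc5 rose by 3.36 ± 0.26 on the log2 scale in MI (adjusted p = 2.73e-08) and by 2.50 ± 0.25 in IR (adjusted p = 5.86e-07). Aurkb averaged 32.5 ± 3.32 CPM in MI hearts against 3.87 ± 2.21 CPM in MISham hearts, with 29.1 ± 4.10 CPM for IR against 4.96 ± 1.66 CPM for IRSham. Cdca8 averaged 31.8 ± 4.38 CPM in MI hearts against 3.46 ± 2.13 CPM in MISham hearts, with 26.2 ± 2.91 CPM for IR against 4.74 ± 1.15 CPM for IRSham. Incenp averaged 66.1 ± 6.51 CPM in MI hearts against 11.2 ± 3.19 CPM in MISham hearts, with 59.6 ± 7.52 CPM for IR against 14.9 ± 3.07 CPM for IRSham. All 4 genes of the complex rose in both injuries, by 2.56 to 3.36 in MI and by 1.997 to 2.55 in IR on the log2 scale.

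Condensins are the ring complexes that fold mitotic chromosomes, and their genes among the members were split. SMC2 and SMC4 are the ATPase arms common to condensin I and condensin II, NCAPG and NCAPH belong to condensin I, and NCAPD3 belongs to condensin II. Smc4 had 96.4, 98.1, 84.1 and 91.3 CPM in the MI libraries, against 25.8, 24.1, 35.2 and 26.7 CPM in the MISham libraries. For Smc4 the IR libraries had 68.2, 90.8, 81.7 and 89.5 CPM, against 28.2, 29.1, 32.1 and 33.9 CPM in the IRSham libraries. Smc4 was readily counted in sham hearts, and the groups still did not overlap. Smc4 rose by 1.73 ± 0.11 on the log2 scale in MI (adjusted p = 3.08e-09) and by 1.42 ± 0.11 in IR (adjusted p = 4.49e-08). Ncapg had 20.1, 21.2, 15.4 and 20.02 CPM in the MI libraries, against 1.72, 0.944, 5.08 and 0.840 CPM in the MISham libraries. For Ncapg the IR libraries had 13.8, 18.3, 19.4 and 18.8 CPM, against 0.974, 2.46, 3.02 and 3.19 CPM in the IRSham libraries. Sham libraries of Ncapg held at most 5.08 CPM, and none reached the lowest injured library. Ncapg rose by 3.13 ± 0.45 on the log2 scale in MI (adjusted p = 2.2e-05) and by 2.87 ± 0.45 in IR (adjusted p = 6.28e-05). Smc2 averaged 58.4 ± 8.598 CPM in MI hearts against 10.3 ± 3.51 CPM in MISham hearts, with 49.0 ± 8.88 CPM for IR against 10.53 ± 2.19 CPM for IRSham. Ncaph averaged 27.9 ± 3.87 CPM in MI hearts against 5.18 ± 2.71 CPM in MISham hearts, with 25.2 ± 4.76 CPM for IR against 5.66 ± 1.52 CPM for IRSham. Both rose, Smc2 by 2.50 ± 0.23 in MI and 2.22 ± 0.22 in IR and Ncaph by 2.42 ± 0.28 in MI and 2.15 ± 0.28 in IR. Ncapd3 did not follow them, but it does not stand for condensin II as a whole. Condensin II also has NCAPG2 and NCAPH2, whose genes were among the other mitotic genes read below. Before scaling, Ncapg2 had 1319, 2593, 1603 and 2014 counts in the IR libraries, against 240, 185, 282 and 350 in the IRSham libraries. Ncaph2 had 2571, 3228, 3181 and 2871 counts in IR, against 2219, 1900, 2102 and 1981 in IRSham, a smaller gap. Ncapd3 had 31.3, 31.5, 31.8 and 28.5 CPM in the MI libraries, against 32.1, 36.9, 27.0 and 29.3 CPM in the MISham libraries. For Ncapd3 the IR libraries had 22.1, 26.7, 32.7 and 28.7 CPM, against 31.2, 25.7, 28.0 and 27.0 CPM in the IRSham libraries. The groups overlapped in both injuries. The log2 difference of Ncapd3 was -0.03 ± 0.11 in MI (adjusted p = 0.845) and -0.02 ± 0.11 in IR (adjusted p = 0.881), and with library size alone in place of TMM it was 0.29 in MI (adjusted p = 0.0295) and 0.27 in IR (adjusted p = 0.0451), where the median of all genes was itself 0.39 in MI and 0.32 in IR.

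The centromere and kinetochore genes also held exceptions. NDC80, NUF2 and SPC25 belong to the NDC80 complex, which grips microtubules, CENP-E is a kinesin that carries chromosomes along them, and CENP-F is a large coiled-coil protein of the outer kinetochore. Nuf2 had 27.1, 30.2, 22.0 and 28.8 CPM in the MI libraries, against 2.53, 1.57, 4.29 and 1.45 CPM in the MISham libraries. For Nuf2 the IR libraries had 21.1, 26.2, 25.7 and 25.5 CPM, against 1.46, 3.13, 4.43 and 4.41 CPM in the IRSham libraries. The injured libraries lay far above the sham libraries. Nuf2 rose by 3.44 ± 0.33 on the log2 scale in MI (adjusted p = 2.22e-07) and by 2.88 ± 0.32 in IR (adjusted p = 1.72e-06). Ndc80 averaged 18.3 ± 1.53 CPM in MI hearts against 2.001 ± 0.831 CPM in MISham hearts, with 15.2 ± 2.33 CPM for IR against 2.51 ± 0.651 CPM for IRSham. Spc25 averaged 16.2 ± 1.37 CPM in MI hearts against 1.86 ± 0.744 CPM in MISham hearts, with 16.5 ± 0.993 CPM for IR against 2.51 ± 1.03 CPM for IRSham. Cenpe averaged 42.0 ± 3.40 CPM in MI hearts against 5.44 ± 3.34 CPM in MISham hearts, with 39.2 ± 5.83 CPM for IR against 6.86 ± 2.26 CPM for IRSham. These 3 rose too, Ndc80 by 3.18 ± 0.24 in MI and 2.60 ± 0.23 in IR, Spc25 by 3.11 ± 0.25 in MI and 2.71 ± 0.25 in IR and Cenpe by 2.94 ± 0.34 in MI and 2.51 ± 0.33 in IR. Cenpf had 35.2, 39.2, 34.0 and 36.1 CPM in the MI libraries, against 14.4, 25.1, 18.4 and 27.3 CPM in the MISham libraries. For Cenpf the IR libraries had 36.5, 39.9, 38.2 and 40.1 CPM, against 18.2, 12.9, 15.7 and 18.4 CPM in the IRSham libraries. MISham replicates 2 and 4 were the highest sham libraries for Cenpf, and neither injury overlapped with its sham. Cenpf rose by 0.77 ± 0.15 on the log2 scale in MI (adjusted p = 0.000327) and by 1.25 ± 0.16 in IR (adjusted p = 3.74e-06). These were the smallest rises among the 38. Cenpa had 67.4, 74.7, 65.9 and 68.8 CPM in the MI libraries, against 62.0, 71.96, 65.4 and 60.8 CPM in the MISham libraries. For Cenpa the IR libraries had 65.9, 65.8, 74.0 and 72.1 CPM, against 58.0, 61.3, 63.1 and 66.9 CPM in the IRSham libraries. The Cenpa groups overlapped in both injuries. Its log2 difference was 0.09 ± 0.07 in MI (adjusted p = 0.27) and 0.16 ± 0.07 in IR (adjusted p = 0.0626), and with library size alone it was called at 0.40 in MI and 0.45 in IR. Without IRSham replicate 4 the IR value was called at 0.19 (adjusted p = 0.0389).

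**Figure D2:**
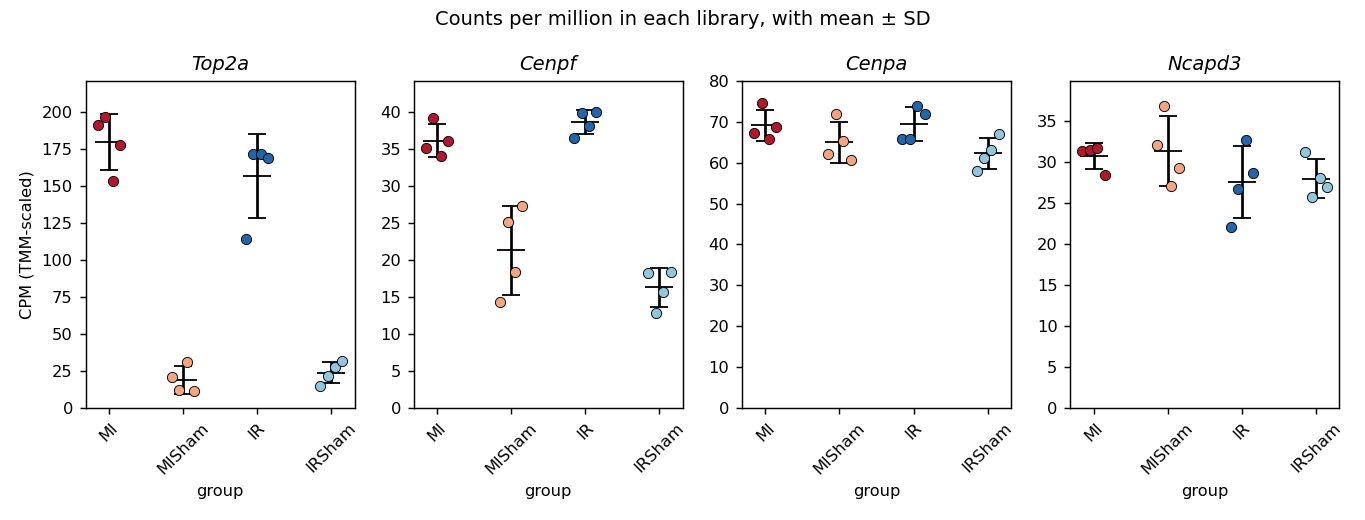
CPM (vertical axis, from 0, TMM-scaled) of Top2a, Cenpf, Cenpa and Ncapd3 in each library of the 4 groups (horizontal axis); points are libraries and black bars mean ± SD (n = 4). Top2a averages 179 CPM in MI against 18.6 in MISham, Cenpf shows a smaller gap (36.1 in MI against 21.3 in MISham), and the groups of Cenpa and Ncapd3 overlap.

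The spindle checkpoint kinases BUB1 and TTK and the inhibitors MAD2 (Mad2l1) and BUBR1 (Bub1b) hold anaphase back. Ttk had 13.2, 14.5, 12.6 and 13.9 CPM in the MI libraries, against 1.24, 0.270, 1.54 and 0.513 CPM in the MISham libraries. For Ttk the IR libraries had 9.13, 13.0, 11.9 and 11.8 CPM, against 1.011, 1.32, 1.89 and 2.53 CPM in the IRSham libraries. In sham hearts Ttk was at or below 2.53 CPM in all 8 libraries, and the injured libraries were all at 9.13 CPM or more. Ttk rose by 3.89 ± 0.35 on the log2 scale in MI (adjusted p = 6.91e-08) and by 2.76 ± 0.33 in IR (adjusted p = 2.1e-06). The MI value, 14.8-fold, was the largest of the 40 genes, and MISham replicate 2 alone held 0.270 CPM. Mad2l1 had 31.6, 35.8, 26.9 and 30.5 CPM in the MI libraries, against 5.62, 4.09, 7.95 and 5.92 CPM in the MISham libraries. For Mad2l1 the IR libraries had 19.9, 30.3, 27.5 and 29.8 CPM, against 5.69, 5.55, 8.02 and 6.95 CPM in the IRSham libraries. The groups were separate. Mad2l1 rose by 2.40 ± 0.18 on the log2 scale in MI (adjusted p = 1.02e-08) and by 2.04 ± 0.18 in IR (adjusted p = 1.13e-07). Bub1 averaged 23.6 ± 2.25 CPM in MI hearts against 2.202 ± 0.879 CPM in MISham hearts, with 19.0 ± 2.67 CPM for IR against 2.97 ± 0.608 CPM for IRSham. Bub1b averaged 41.8 ± 4.93 CPM in MI hearts against 5.39 ± 2.39 CPM in MISham hearts, with 33.9 ± 8.46 CPM for IR against 7.003 ± 1.75 CPM for IRSham. All 4 rose, by 2.40 to 3.89 in MI and by 2.04 to 2.76 in IR on the log2 scale.

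CDC20 activates the anaphase-promoting complex, a ubiquitin ligase, and UBE2C is the ubiquitin-conjugating enzyme that works with it. Ube2c had 46.7, 49.7, 40.4 and 42.9 CPM in the MI libraries, against 5.05, 2.56, 11.1 and 4.01 CPM in the MISham libraries. For Ube2c the IR libraries had 36.2, 44.6, 39.6 and 44.2 CPM, against 3.71, 6.69, 7.25 and 7.11 CPM in the IRSham libraries. Neither injury overlapped with its sham for Ube2c. Ube2c rose by 2.97 ± 0.33 on the log2 scale in MI (adjusted p = 1.63e-06) and by 2.74 ± 0.33 in IR (adjusted p = 5.41e-06). Cdc20 had 53.6, 56.0, 43.9 and 48.6 CPM in the MI libraries, against 6.50, 3.10, 12.6 and 3.08 CPM in the MISham libraries. For Cdc20 the IR libraries had 34.0, 46.3, 44.4 and 41.0 CPM, against 4.16, 7.88, 7.41 and 9.15 CPM in the IRSham libraries. Sham libraries reached 12.6 CPM for Cdc20, in MISham replicate 3, and stayed below every injured library. Cdc20 rose by 2.98 ± 0.37 on the log2 scale in MI (adjusted p = 5.45e-06) and by 2.54 ± 0.36 in IR (adjusted p = 3.2e-05).

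Of the spindle proteins, KIF11 pushes the poles apart, KIF2C removes tubulin from microtubule ends, TPX2 activates Aurora A, and NUSAP1 and HMMR bind microtubules. Tpx2 had 77.2, 84.2, 65.2 and 78.4 CPM in the MI libraries, against 8.50, 4.27, 13.9 and 5.13 CPM in the MISham libraries. For Tpx2 the IR libraries had 51.8, 68.3, 70.9 and 69.6 CPM, against 7.604, 10.48, 12.0 and 11.4 CPM in the IRSham libraries. The groups of Tpx2 were separate by a wide margin. Tpx2 rose by 3.25 ± 0.29 on the log2 scale in MI (adjusted p = 1.79e-07) and by 2.65 ± 0.28 in IR (adjusted p = 1.71e-06). Kif2c had 26.1, 29.3, 20.9 and 22.4 CPM in the MI libraries, against 1.64, 1.53, 4.68 and 0.980 CPM in the MISham libraries. For Kif2c the IR libraries had 15.97, 24.5, 23.1 and 24.4 CPM, against 2.51, 2.64, 2.86 and 3.51 CPM in the IRSham libraries. IR replicate 1 was the lowest of its group at 16.0 CPM and still above every sham library. Kif2c rose by 3.46 ± 0.34 on the log2 scale in MI (adjusted p = 2.89e-07) and by 2.93 ± 0.33 in IR (adjusted p = 2.02e-06). Kif11 averaged 51.9 ± 6.46 CPM in MI hearts against 6.40 ± 3.72 CPM in MISham hearts, with 48.2 ± 7.93 CPM for IR against 7.598 ± 1.99 CPM for IRSham. Nusap1 averaged 22.9 ± 2.92 CPM in MI hearts against 4.11 ± 1.73 CPM in MISham hearts, with 24.6 ± 2.98 CPM for IR against 5.20 ± 1.21 CPM for IRSham. Hmmr averaged 31.6 ± 2.85 CPM in MI hearts against 3.37 ± 1.55 CPM in MISham hearts, with 27.6 ± 4.61 CPM for IR against 4.53 ± 1.65 CPM for IRSham. All 5 rose, by 2.47 to 3.46 in MI and by 2.24 to 2.93 in IR on the log2 scale.

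Cytokinesis, the final split, uses the microtubule bundler PRC1, the kinesins KIF20A and KIF23, the actin-binding anillin (Anln) and ECT2, which activates the contractile ring. Prc1 had 54.3, 57.4, 44.8 and 55.0 CPM in the MI libraries, against 6.78, 3.69, 9.72 and 4.25 CPM in the MISham libraries. For Prc1 the IR libraries had 39.6, 60.4, 53.6 and 49.9 CPM, against 7.27, 6.21, 7.90 and 11.2 CPM in the IRSham libraries. The groups of Prc1 did not overlap. Prc1 rose by 3.10 ± 0.26 on the log2 scale in MI (adjusted p = 8.16e-08) and by 2.64 ± 0.25 in IR (adjusted p = 5.75e-07). Kif20a averaged 36.2 ± 3.72 CPM in MI hearts against 4.57 ± 1.83 CPM in MISham hearts, with 31.6 ± 7.73 CPM for IR against 5.47 ± 1.41 CPM for IRSham. Kif23 averaged 38.8 ± 4.31 CPM in MI hearts against 5.53 ± 2.72 CPM in MISham hearts, with 35.3 ± 6.18 CPM for IR against 6.24 ± 1.25 CPM for IRSham. All 5 rose, by 2.71 to 3.10 in MI and by 2.49 to 2.64 in IR on the log2 scale. Anln averaged 77.1 ± 10.8 CPM in MI hearts against 11.7 ± 7.85 CPM in MISham hearts, with 61.0 ± 11.4 CPM for IR against 10.8 ± 3.03 CPM for IRSham. Ect2 averaged 25.5 ± 2.35 CPM in MI hearts against 3.66 ± 2.59 CPM in MISham hearts, with 24.0 ± 2.70 CPM for IR against 3.90 ± 1.66 CPM for IRSham. Over all 38 members that rose, the highest adjusted p was 0.000327 in MI, for Cenpf, and 0.000122 in IR, for Ccnb1.

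**Figure D3:**
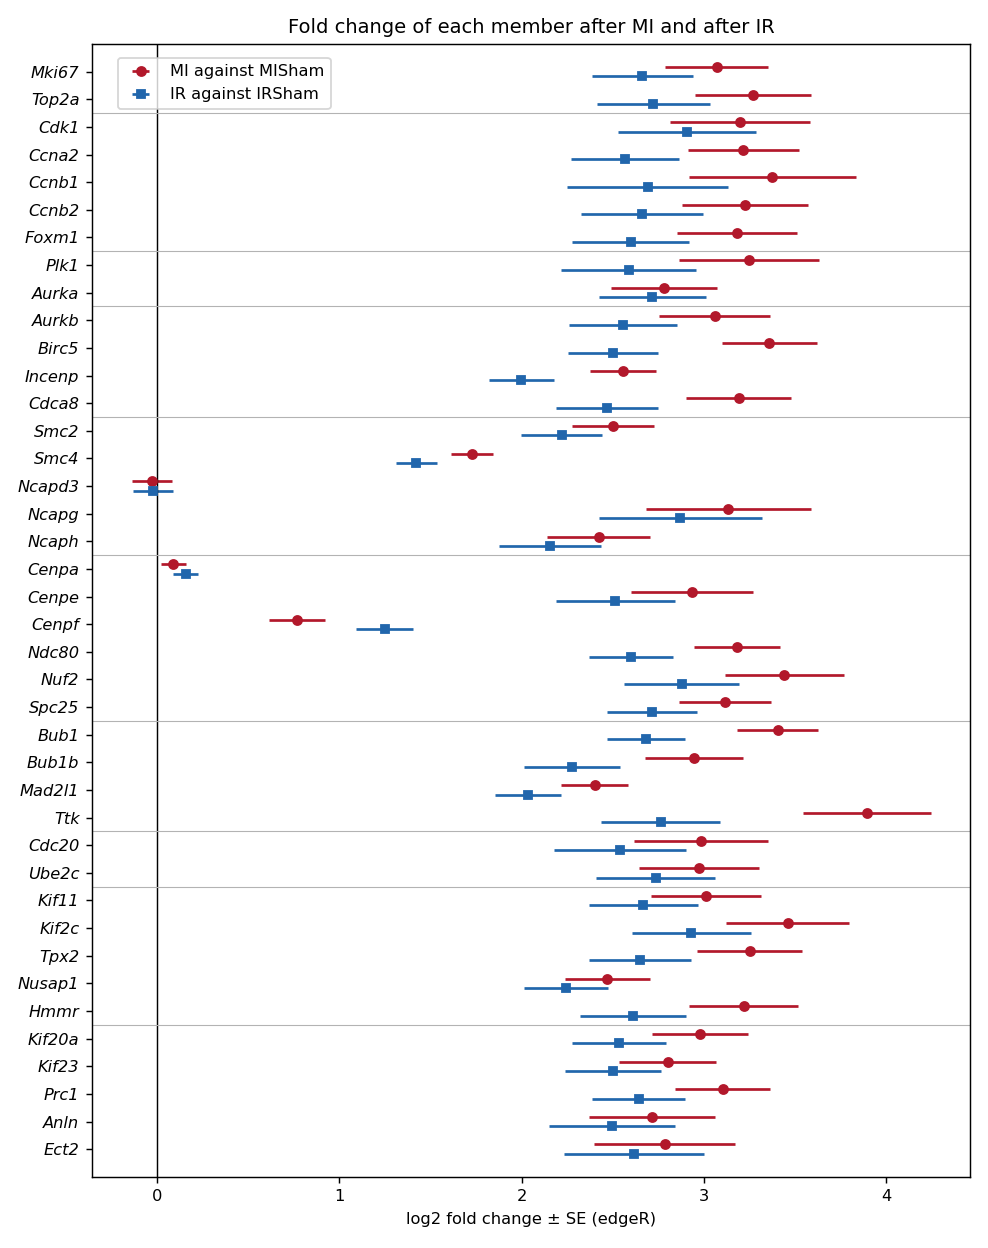
Log2 fold change ± SE by edgeR (horizontal axis) of each of the 40 genes (down the page), with circles for MI against MISham and squares for IR against IRSham. Most genes lie between 2 and 4 in both comparisons, Ttk reaches 3.89 in MI, and Ncapd3 and Cenpa sit at or near 0.

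Behind the level gene counts of Ncapd3, its transcripts differed. Ncapd3-201, its longest annotated transcript, was lower and Ncapd3-205 higher in both injuries. Ncapd3-201 had 0.699, 2.03, 1.08 and 1.44 TPM in the MI libraries, against 3.21, 3.59, 1.76 and 2.82 TPM in the MISham libraries. For Ncapd3-201 the IR libraries had 0.719, 1.47, 1.51 and 0.511 TPM, against 2.92, 2.66, 2.81 and 2.59 TPM in the IRSham libraries. Every MI library lay below 3 of the 4 MISham libraries, MI replicate 2 overlapped with MISham replicate 3, and every IR library lay below every IRSham library. Ncapd3-205 had 4.87, 2.90, 3.58 and 3.01 TPM in the MI libraries, against 0.00110, 6.30e-06, 0.664 and 1.38e-06 TPM in the MISham libraries. For Ncapd3-205 the IR libraries had 3.01, 2.76, 4.45 and 4.71 TPM, against 0.311, 0, 0.220 and 0.00524 TPM in the IRSham libraries. All 8 injured libraries were at 2.76 TPM or more and no sham library exceeded 0.664 TPM. Ncapd3-205 therefore reached the mean of 1 TPM required for the test only through the injured groups, so the filter favoured a rise. With TMM factors on TPM, limma's log2(TPM + 1) change of Ncapd3-201 was -1.23 ± 0.21 (adjusted p = 0.000186) in MI and -1.29 ± 0.21 (adjusted p = 0.00018) in IR. The change of Ncapd3-205 was 1.69 ± 0.23 (adjusted p = 2.97e-05) in MI and 1.76 ± 0.23 (adjusted p = 3.38e-05) in IR.

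Shares within a gene do not depend on how libraries are scaled, and they moved the same way. The usage test required a summed TPM averaging 5 or more over all 16 libraries. Ncapd3 averaged 4.25 ± 0.779 in MISham and 4.28 ± 0.759 in IRSham, against 7.45 ± 0.303 in MI and 6.70 ± 2.155 in IR. It thus passed that filter through the injured groups, and its sham shares split a level below the filter. Ncapd3-201 held 9.02%, 27.9%, 14.1% and 20.3% of the annotated TPM of the gene in the MI libraries, against 70.4%, 72.3%, 40.5% and 89.2% in the MISham libraries. For Ncapd3-201 the shares were 15.7%, 28.4%, 16.9% and 6.33% in the IR libraries, against 57.9%, 82.5%, 63.1% and 59.1% in the IRSham libraries. The groups did not overlap in either injury, and MISham replicate 3 was the sham library closest to the injured ones. Ncapd3-201 averaged 17.8% ± 8.14 in MI against 68.1% ± 20.2 in MISham, a change of -50.3 ± 8.61 percentage points (limma, adjusted p = 0.00262). Its IR mean was 16.8% ± 9.06, against 65.7% ± 11.4 for IRSham, a change of -48.8 ± 8.61 percentage points (limma, adjusted p = 0.00532). Ncapd3-205 held 62.9%, 39.8%, 46.8% and 42.3% of the annotated TPM of the gene in the MI libraries, against 0.0242%, 0.000127%, 15.3% and 4.38e-05% in the MISham libraries. For Ncapd3-205 the shares were 65.8%, 53.4%, 49.6% and 58.3% in the IR libraries, against 6.17%, 0%, 4.93% and 0.120% in the IRSham libraries. Again the groups were separate, with MISham replicate 3 alone among the sham libraries above 10%. Ncapd3-205 averaged 47.9% ± 10.4 in MI against 3.84% ± 7.66 in MISham, a change of 44.1 ± 5.04 percentage points (limma, adjusted p = 0.000144). Its IR mean was 56.8% ± 7.02, against 2.81% ± 3.21 for IRSham, a change of 54.0 ± 5.04 percentage points (limma, adjusted p = 8.05e-05). The changes in MI and in IR differed by -1.44 ± 12.2 percentage points for Ncapd3-201 (limma, adjusted p = 0.988) and by -9.87 ± 7.12 for Ncapd3-205 (adjusted p = 0.797). In GENCODE M21 both transcripts have the same 4518 coding bases. Ncapd3-201 has 36 exons and 5499 bases, while Ncapd3-205 has 35 exons and 5149 bases and starts 474 bases downstream, so the models differ outside the coding sequence. Estimated abundances of transcripts this alike rest on the reads that fall in the parts they do not share.

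**Figure D4:**
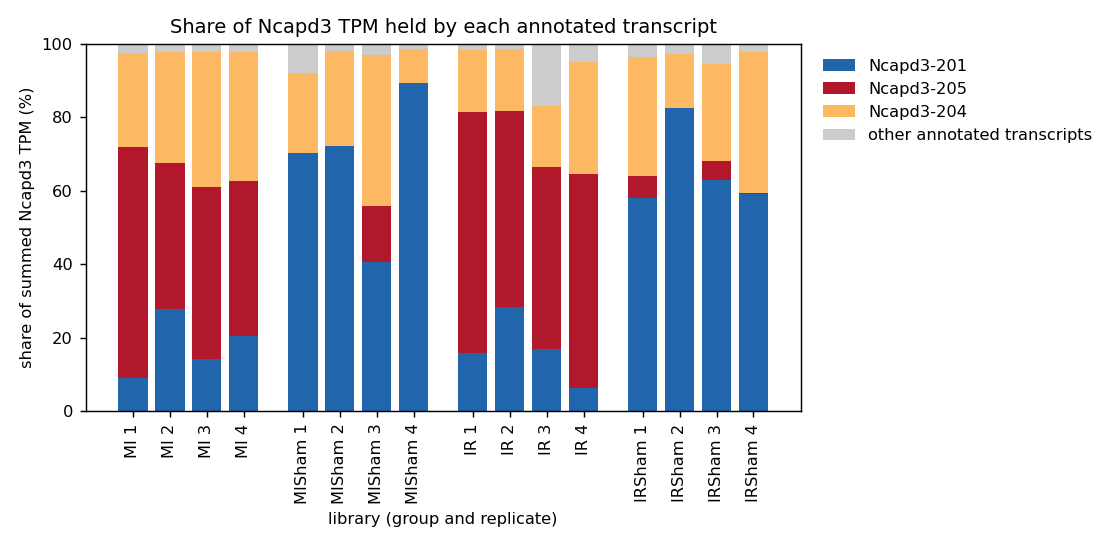
Stacked bars of the share (%) of the summed Ncapd3 TPM held by Ncapd3-205 (red), Ncapd3-201 (blue), Ncapd3-204 (yellow) and the other annotated transcripts (grey), for each library by group and replicate. Ncapd3-205 fills 39.8% or more of every MI and IR bar and at most 15.3% of any sham bar.

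Of the 244 annotated transcripts of the 40 genes, 85 passed the filter of a mean TPM of at least 1. That mean is over all 16 libraries, so a transcript scarce in the sham groups could pass through the injured groups. All transcripts of Ttk together, for example, averaged 0.403 TPM in MISham and 5.78 in MI. The filter thus favoured rises, and the counts of member transcripts below are a description. As deposited, 83 of the 85 rose in MI and 78 in IR by limma, where 49% of all transcripts rose in MI and 42.5% in IR, and 1 fell in each, Ncapd3-201, where 10.1% of all transcripts fell in MI and 9.23% in IR. TPM carry no correction for library composition, and the median log2 change of all transcripts was 0.60 in MI and 0.48 in IR. With TMM factors 79 member transcripts were tested, and 70 rose in MI (22.6% of all transcripts) and 64 in IR (18%). Ncapd3-201 and Cenpa-208 then fell in MI (22.5% of all) and Ncapd3-201 in IR (20.8%). Summed per gene as deposited, all 40 rose in MI (66.3% of all genes) and in IR (62.3%). Summed with TMM factors, 39 of the 40 rose in MI (35.5% of all genes) and 39 in IR (30.9%), and Ncapd3 was the exception, at 0.05 ± 0.16 in MI (adjusted p = 0.793) and -0.02 ± 0.16 in IR (adjusted p = 0.911).

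Cenpa was also less uniform than its counts. Of its summed TPM Cenpa-202, annotated as a target of nonsense-mediated decay, held 40.5% ± 2.11 in MI against 45.3% ± 3.90 in MISham. In IR it held 40.3% ± 3.61, against 49.6% ± 4.31 for IRSham. Cenpa-205 is the transcript with the longest coding sequence, 402 bases. Cenpa-205 had 10.9, 14.2, 11.1 and 13.3 TPM in the MI libraries, against 1.59, 3.65, 5.12 and 3.27 TPM in the MISham libraries. For Cenpa-205 the IR libraries had 9.52, 14.3, 12.3 and 14.3 TPM, against 4.17, 5.08, 5.92 and 7.11 TPM in the IRSham libraries. As deposited, no injured library overlapped with its sham. With TMM factors Cenpa-205 rose by 1.02 ± 0.22 (adjusted p = 0.00161) in MI by limma, and its value in IR was 0.48 ± 0.22 (adjusted p = 0.104). The change of Cenpa-202 was 0.25 ± 0.08 (adjusted p = 0.0217) in MI and -0.03 ± 0.08 (adjusted p = 0.787) in IR. Summed over its transcripts with TMM factors, Cenpa rose by 0.41 ± 0.10 in MI (adjusted p = 0.00181) and 0.26 ± 0.10 in IR (adjusted p = 0.0339), which the gene counts did not show. No transcript share of Cenpa passed the usage test.

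The usage test covered 103 transcripts of 29 member genes. It called 4 transcripts of 3 members in MI and 3 transcripts of 2 members in IR, where 5.91% of all transcripts tested were called in MI and 3.88% in IR. Out of 103 these counts are not above the shares over all transcripts, and nothing is read from them about the members as a set. Besides Ncapd3 the members called were Prc1 and Kif23. Prc1-210 held 29.5%, 30.4%, 34.9% and 30.3% of the annotated TPM of the gene in the MI libraries, against 5.28%, 0%, 21.9% and 5.08% in the MISham libraries. For Prc1-210 the shares were 26.7%, 30.3%, 23.5% and 37.4% in the IR libraries, against 11.9%, 14.98%, 14.0% and 18.3% in the IRSham libraries. The MI libraries lay above all MISham libraries, and the IR libraries above all IRSham libraries. Prc1-210, a coding transcript, averaged 31.3% ± 2.47 in MI against 8.07% ± 9.55 in MISham, a change of 23.2 ± 4.04 percentage points (limma, adjusted p = 0.00286). In IR it averaged 29.5% ± 5.96 against 14.8% ± 2.67 in IRSham, a change of 14.7 ± 4.04 percentage points (limma, adjusted p = 0.0551), which was not called. Without IR replicate 3 that change was called at 16.6 points (adjusted p = 0.0432). Kif23-212 held 25.2%, 21.7%, 20.6% and 28.5% of the annotated TPM of the gene in the MI libraries, against 35.2%, 45.02%, 31.4% and 39.2% in the MISham libraries. For Kif23-212 the shares were 24.1%, 20.7%, 10.8% and 22.1% in the IR libraries, against 0%, 11.2%, 0% and 0% in the IRSham libraries. The share of Kif23-212, a non-coding transcript of 392 bases, was lower in every MI library than in every MISham library. In 3 of the 4 IR libraries it was higher than in every IRSham library, IR replicate 3 overlapping. It changed by -13.7 ± 3.68 percentage points (limma, adjusted p = 0.0361) in MI and by 16.6 ± 3.68 percentage points (limma, adjusted p = 0.0188) in IR. The sham groups differed too, the share being 34.9 ± 3.68 points higher in MISham than in IRSham (limma, adjusted p = 0.00203), where 0.0742% of all transcripts were called. The difference of the MI and IR changes was -30.3 ± 5.21 points (adjusted p = 0.0754). The MI call was lost in 6 of 8 and the IR call in 5 of 8 fits that left out 1 library, with adjusted p of 0.0512 to 0.103 in MI and 0.0516 to 0.0577 in IR. The summed TPM of Kif23 averaged 32.9 ± 5.49 in MI and 26.0 ± 7.33 in IR. In MISham it averaged only 3.46 ± 1.69 and in IRSham 3.29 ± 0.906, so Kif23 passed the usage filter through the injured groups. The sham shares of Kif23-212 split this low level, and no isoform switch is read from them.

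Whether the rise differed between injuries was tested as the difference of the MI and IR changes. By edgeR none of the 40 genes was called, where 0.117% of all genes were called higher and 0.076% lower, and DESeq2 called 0 of 40. At an unadjusted p under 0.05 edgeR had Birc5, Incenp, Bub1 and Ttk with a larger change in MI and Cenpf with a smaller change. The smallest adjusted p was 0.266. The change was the larger in MI for 37 of the 40, with a median difference of 0.445 on the log2 scale beside 0.0391 over all genes. How many of all genes passed that unadjusted level, or had the larger change in MI, was not counted. Nothing is therefore read from either about the members as a set. Single differences ran from -0.48 ± 0.22 for Cenpf to 1.13 ± 0.47 for Ttk. Because each change is set against its own sham group, this difference holds the levels of 4 groups at once.

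The sham libraries were not alike. Across the 4 MISham libraries the 40 genes had a summed CPM of 342.6, 281.9, 502.1 and 279.7, against 315.6, 357.2, 421.2 and 468.6 in the IRSham libraries. MISham replicates 1 and 3 both exceeded replicates 2 and 4 in 31 of the 40 genes, and in 24.5% of all genes. The same libraries were the higher for fibroblast markers, with sums of 6005, 2230, 8278 and 3289 CPM in MISham replicates 1 to 4, and for macrophage markers, with 1200, 480.9, 906.3 and 544.9 CPM; their part in the members' values was not tested. Without MISham replicates 1 and 3 the count of members higher in MI was 38, with a median log2 fold change of 3.78. Those libraries had the higher member sums of their group, so a larger rise without them was fixed in advance. The value is a description and no check of the result. In the IR group the summed CPM was 1375, 1860, 1797 and 1799, so that replicate 1 stood lowest. Cardiomyocyte markers summed to 35000, 16630, 31390 and 18240 CPM in the same 4 libraries, the highest in replicate 1, and their part in the members' values was not tested. IR replicates 2 and 4 both exceeded 1 and 3 in 14 of the 40 genes (20.1% of all genes). Without IR replicates 1 and 3 the count higher in IR was 38, with a median of 2.68. As those libraries had the lower member sums of the IR group, this too is only a description.

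Between MISham and IRSham edgeR called 0 of the 40 genes, where 2.34% of all genes were called higher and 0.866% lower, and DESeq2 called 0. At an unadjusted p under 0.05 Cenpf was higher and Birc5, Incenp and Ttk were lower in MISham than in IRSham, with a smallest adjusted p of 0.25. The share of all genes at that unadjusted level was not counted, and nothing is read from these names about the members. The median log2 difference of the 40 was -0.327. Single libraries moved this. Without MISham replicate 3 edgeR called 4 members lower in MISham, Ccnb1 at -1.44 ± 0.32 (adjusted p = 0.0216), Cdca8 at -0.97 ± 0.19 (adjusted p = 0.00515), Kif2c at -1.05 ± 0.22 (adjusted p = 0.0113) and Incenp at -0.61 ± 0.16 (adjusted p = 0.04997). Over all genes, fits that left out 1 library called 120 to 328 lower in MISham, against 171 with every library. Without MISham replicate 1 Cenpf was called higher at 0.53 ± 0.13 (adjusted p = 0.0278). In the difference of the MI and IR changes, leaving out MISham replicate 3 called Cdca8 at 1.26 ± 0.24 (adjusted p = 0.0336) and brought the median to 0.858. MISham replicate 3 had the highest member sum of its group, 502.1 CPM. Lower MISham values and a larger difference without that library were thus fixed in advance, and the values without it are a description. Leaving out IR replicate 3, the library with the high erythroid markers, called none of the 40 and gave a median of 0.476, while the calls over all genes went up to 282, against 38 with every library. Leaving out MISham replicates 1 and 3 and IR replicates 1 and 3 together called 8 members larger in MI, Ttk at 2.19 (adjusted p = 0.0219), Cdc20 at 1.37 (adjusted p = 0.0443), Cdk1 at 1.27 (adjusted p = 0.0173), Tpx2 at 1.25 (adjusted p = 0.0114), Cdca8 at 1.22 (adjusted p = 0.0271), Bub1 at 1.21 (adjusted p = 0.0272), Kif2c at 1.17 (adjusted p = 0.0367) and Mki67 at 0.98 (adjusted p = 0.0445). It called Cenpf smaller in MI at -0.87 (adjusted p = 0.0142), and the median was 1.03. Those 4 libraries were picked because they stood apart in earlier results of these data, so these values are a description.

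Related genes outside the 40 were read from 5 lists, with log2 fold changes ± SE by edgeR; beside their counts, 34.8% of all genes rose and 30.2% fell in MI, and 29.5% rose and 28.2% fell in IR. Of 72 other mitotic genes 68 rose and 1 fell in MI, and 66 rose and 2 fell in IR, with medians of 2.79 in MI and 2.29 in IR. Kif18b, a kinesin that trims spindle microtubules, rose by 3.66 ± 0.26 in MI and 2.61 ± 0.25 in IR. Cenpm, a subunit of the constitutive centromere network, rose by 3.60 ± 0.29 in MI and 2.51 ± 0.27 in IR. These ran with the members. Pttg1, securin, which restrains separase until anaphase, fell, with a log2 change of -1.67 ± 0.11 in MI and -1.45 ± 0.11 in IR. It was the only gene of the list that fell in MI, and in IR Ska2, a kinetochore protein, fell as well, by 0.29 ± 0.11 on the log2 scale. Of 22 DNA replication genes 22 rose in both injuries, with medians of 2.24 in MI and 1.67 in IR. Rrm2, the regulated subunit of ribonucleotide reductase, rose by 3.05 ± 0.22 in MI and 2.63 ± 0.22 in IR. Cdc6, a loader of the replicative helicase, rose by 3.005 ± 0.39 in MI and 2.40 ± 0.38 in IR. Of 13 tested E2F, B-MYB and MuvB factors, the upstream regulators, 9 rose and 2 fell in MI, and 11 rose and 2 fell in IR, with medians of 0.596 in MI and 0.403 in IR. Mybl2, which encodes B-MYB, rose by 3.12 ± 0.38 in MI and 2.34 ± 0.37 in IR. E2f1, an activator of replication genes, rose by 2.65 ± 0.37 in MI and 2.09 ± 0.36 in IR. E2f6, a repressor of the family, fell, with a log2 change of -1.26 ± 0.09 in MI and -1.22 ± 0.09 in IR. Lin52, a MuvB core subunit, fell, with a log2 change of -0.94 ± 0.16 in MI and -0.62 ± 0.16 in IR.

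The anaphase-promoting complex is the ligase with which CDC20 and UBE2C work. Of its 12 core subunits 5 rose and 2 fell in MI, and 6 rose and 3 fell in IR, with medians of 0.139 in MI and 0.172 in IR. Those shares are not far from the shares over all genes given above, and nothing is read from them about the complex. Cdc27, a core subunit, rose by 0.74 ± 0.08 in MI and 0.61 ± 0.08 in IR. Cdc16, another core subunit, rose by 0.59 ± 0.07 in MI and 0.51 ± 0.07 in IR. Anapc13, a small subunit, fell, with a log2 change of -1.30 ± 0.13 in MI and -1.22 ± 0.13 in IR. Anapc5, a platform subunit, fell, with a log2 change of -0.32 ± 0.07 in MI and -0.28 ± 0.07 in IR. Of 18 brakes of the cell cycle 9 rose and 6 fell in MI, and 8 rose and 4 fell in IR, with medians of 0.306 in MI and 0.212 in IR, and these shares too are not far from those over all genes. Cdkn2a, the locus of the INK4A and ARF proteins, rose by 2.34 ± 0.56 in MI and 3.87 ± 0.63 in IR. Cdkn2a was scarce in every group, at 0.850 to 1.71 CPM in MI against 0 to 0.394 CPM in MISham, and at 1.28 to 1.81 CPM in IR, set against 0 to 0.225 CPM in IRSham, so its fold changes rest on few counts. Cdkn2b, an inhibitor of the kinases of early cell cycle entry, rose by 1.89 ± 0.27 in MI and 1.57 ± 0.26 in IR. Cdkn1c, an inhibitor of cyclin-dependent kinases, fell, with a log2 change of -1.77 ± 0.25 in MI and -1.48 ± 0.25 in IR. Ccng1, cyclin G1, fell, with a log2 change of -1.61 ± 0.12 in MI and -0.99 ± 0.12 in IR. Among these lists Rbl2, the pocket protein p130, was called in the difference of the MI and IR changes, at -0.56 ± 0.10 (edgeR, adjusted p = 0.0332).

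**Figure D5:**
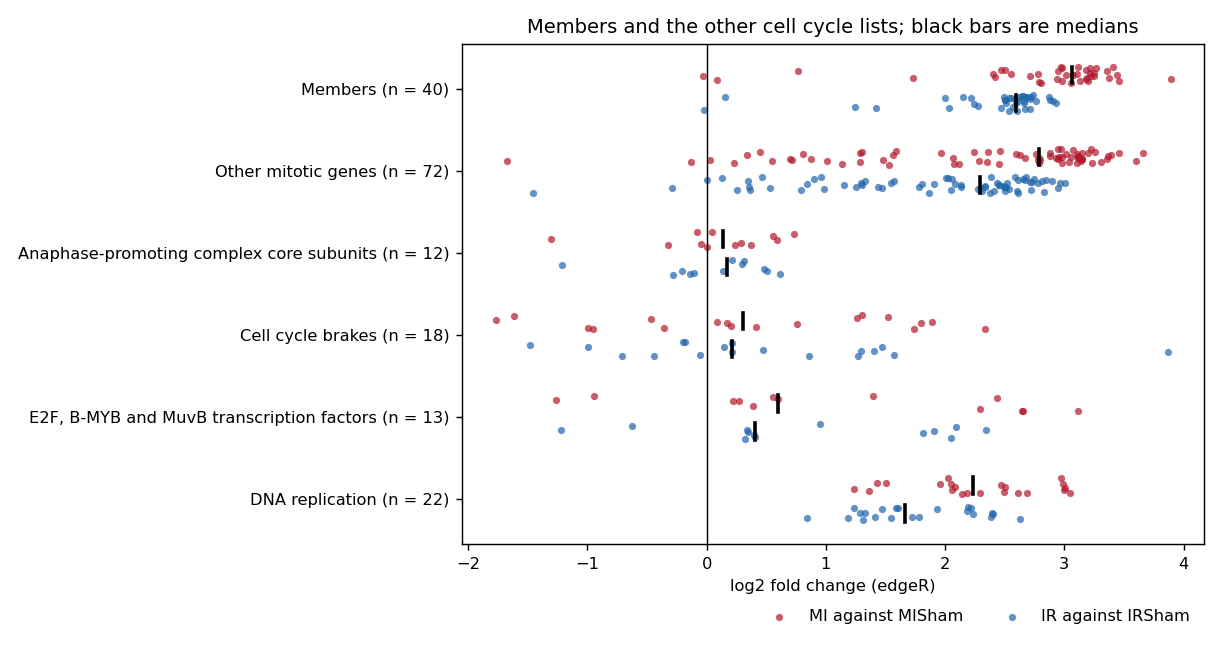
Log2 fold changes by edgeR (horizontal axis) of the genes of each list (down the page), with red points for MI against MISham, blue points for IR against IRSham and black bars for medians. The 40 members, the other mitotic genes and the DNA replication genes lie mostly to the right of 0 with medians of 1.67 to 3.06, while the anaphase-promoting complex and the brakes spread to both sides of 0.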

How the data were processed

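Short-read RNA-seq counts per gene and TPM per transcript were taken as the authors deposited them. Per the submitters' processing notes the tools were HISAT2 2.2.1, SAMtools 1.7, featureCounts 2.0.1 and kallisto 0.50.1 with GRCm39; no source used here gives the strand setting, and reads of overlapping or antisense genes cannot be told apart. Of the 40 members 3 (Mki67, Smc4 and Bub1b) have an antisense ID of their own in the count table, with at most 8 counts in a library. Symbols were looked up in GENCODE M21, an annotation of GRCm38, and found for 52080 of 53633 Ensembl IDs, and 138330 of 163740 transcripts were given a gene. Transcripts given no gene are left out of summed TPM and of shares, and whether any of them belong to the members was not checked. The 2 value columns that name no sample, estimated counts and TPM of 1 library in the deposited transcript table, were not used.

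Count tests used edgeR 4.0.16 (R 4.3.3): TMM scaling, filterByExpr (minimum count 10, minimum total 15), robust quasi-likelihood fitting of the 4 group means (16 libraries), and Benjamini-Hochberg adjustment over 19741 genes. A gene was called, and is said to have risen or fallen, at an adjusted p under 0.05. SE are those of log2 fold changes, derived from the test statistic, and SD are over n = 4 libraries. Transcripts averaging 1 TPM or more went into limma 3.58.1 (trend) on log2(TPM + 1), which understates the change of low transcripts, as deposited and with TMM factors. Usage, the percent of a gene's summed annotated TPM, was tested with limma. A gene needed a summed TPM averaging 5 or more over all 16 libraries, so a single group could lie lower. It also needed 2 or more transcripts averaging a share of 5% or more. A call needed an adjusted p under 0.05 and a change of at least 10 percentage points. Simulated MI against MISham counts over 19033 genes gave back 76% of genes changed 2-fold and 87% of those changed 4-fold, with 4 false calls of 167. The simulation changed 100 genes at each size, up and down alike, around a mean common to all groups. In the data 34.8% of genes rose and 30.2% fell in MI, so these rates need not hold there.

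The members and lists were chosen with earlier results of these data known, so no p-value was computed over the list. Members given with every library are, per role, the most abundant and the most changed in MI, those not called, and the smallest and largest changes; of each related list the 2 largest rises and falls in MI are named. Alternatives were DESeq2 size factors, library size alone, no low-count filter, DESeq2 1.42.0, no robust fit, the replicate block, only the groups compared, thinning to the smallest library, leaving out libraries, summed TPM, and other pseudocounts and filters on TPM; the TMM factors on TPM, the summed TPM fits and the usage alternatives were chosen after seeing the data. Of the erythroid markers those not tested are not reported here. Promoter motifs were searched with Python 3.11.15.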

Additional observations from a re-analysis of the deposited data

Results flagged for a closer look

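Within a group of 4 libraries, 1 library stood apart from the other 3 beyond Dixon's 95% critical value for its gap over the range in 13 of 160 gene groups, where chance flags about 1 in 20 groups, and in 3 of 16 groups of transcript shares. IR replicate 1 was the low library in 7 of the 13, at 114.1 CPM for Top2a, 18.02 for Ncaph, 11.74 for Ndc80, 21.05 for Nuf2, 36.32 for Kif11, 15.97 for Kif2c and 51.84 for Tpx2. MISham replicate 3 was the high library for Cdca8 at 6.614 CPM and Anln at 23.42 CPM. The others were Ncapd3 in MI replicate 4 (lowest, 28.48 CPM), Hmmr in MI replicate 3 (lowest, 27.39 CPM), Spc25 in IRSham replicate 4 (highest, 4.046 CPM) and Ube2c in IRSham replicate 1 (lowest, 3.708 CPM). Among shares, Ncapd3-205 was highest in MISham replicate 3 at 15.32%, Prc1-210 was highest in MI replicate 3 at 34.94%, and Kif23-212 was highest in IRSham replicate 2 at 11.24%.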

How the results depend on the processing

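The count of members higher in each injury was 38 to 40 under every alternative run, and no member was lower in MI or IR on gene counts. Ncapd3 changed sign with library size alone, 0.29 in MI and 0.27 in IR, and with summed TPM as deposited, 0.70 in MI and 0.51 in IR; Cenpa-202 changed sign in IR with TMM factors on TPM (-0.033). For the difference of the MI and IR changes over all genes (38 called, 23 higher and 15 lower), DESeq2 size factors gave 12 higher, no filter on low counts 117 (81 higher, 36 lower), the replicate block 10 (7 higher, 3 lower), DESeq2 525 (244 higher, 281 lower), and the fit without MISham 1 and 3 and IR 1 and 3 691 (559 higher, 132 lower), with 8 members higher and 1 lower. Leaving out 1 library gave 3 to 282 calls there (282 without IR replicate 3, 84 without MISham replicate 3, 3 to 41 without any other), 2 to 203 higher and 1 to 79 lower, with 0 to 1 members higher. For MISham against IRSham (632 called, 171 lower) DESeq2 gave 963, with 346 lower, and leaving out 1 library gave 120 to 328 lower, with 0 to 1 members higher and 0 to 4 lower. Summed TPM as deposited gave 1830 genes lower in MI, and 8928 higher and 1713 lower in IR. Member transcripts in MI were 126 higher and 2 lower at a mean TPM of at least 0.1, and 2 were lower with TMM factors. Leaving out 1 library gave 629 to 1054 usage calls over all transcripts in IR. The causes were not tested. Same-numbered libraries of an injury and its sham did not deviate together (correlations of -0.056 to 0.051). For MI and IR the correlations were -0.151 to 0.23, and for MISham and IRSham -0.148 to 0.055. With 4 libraries per group such values cannot show whether the numbers pair libraries. With the replicate block 38 members rose in MI and 38 in IR. Libraries held 24.3 M counts or more; how small a difference between injuries could be detected was not measured.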
